A study of Mus musculus with 12 samples.

Results

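Head-to-head divergent promoters are neighbouring transcription start sites on opposite strands, arranged so that transcription runs away from a shared stretch of DNA. They were chosen by position alone: among 55385 promoter windows of 2 kb, each centred on an annotated start, a minus-strand centre had to lie 0 to 1000 bp below a plus-strand centre on the same chromosome. The rule gave 1954 pairs with 3801 member windows (6.86% of all windows), which were compared with the 51584 windows that had no such partner. Because 95 windows had more than 1 partner, results per pair used each window with its nearest partner, which left 1852 pairs holding 3704 windows.

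Mouse forebrain at E12.5 (strain C57BL/6, untreated) was profiled in a wild type group and in a group of the genotype EedcKO, as the labels spell it. Eed and an input control came from cross-linked chromatin immunoprecipitation (X-ChIP); H3K27me3, H3K27ac, RNA-Pol2 and an IgG control came from CUT&Tag, in which an antibody-tethered transposase cuts nearby DNA. Each genotype and target had 1 library, 12 in all, so nothing compared here rests on replicates and no test was run. The sources used here give neither the deleted part of Eed, nor what drove its deletion, nor the sex or number of embryos, and in bulk tissue fewer cells carrying a signal and less signal per cell cannot be told apart.

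Bidirectional promoters are common in mammalian genomes. Many lie in CpG islands and serve housekeeping genes such as those for DNA repair and mitochondrial proteins, and a further kind pairs a coding gene with a divergent non-coding transcript. Eed is a core subunit of Polycomb repressive complex 2, which deposits H3K27me3 at silent developmental genes, whereas H3K27ac and RNA polymerase II mark active promoters.

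Total promoter counts ranged from 948955 (EedcKO input) to 3842779 (EedcKO RNA-Pol2). At the promoter of Eed, which is in no pair, the Eed library had 121 counts in wild type and 40 in EedcKO, the input 27 and 19, and RNA-Pol2 89 and 246; as the position of the deletion is unknown, this does not check the genotype. The histone libraries of EedcKO resembled the wild type library of the other mark more than that of their own label: over the leading windows of the 1852 pairs (the window of each with more counts), log2 levels in the library labelled EedcKO H3K27ac correlated with wild type H3K27me3 at r = 0.943 and with wild type H3K27ac at 0.422, and the library labelled EedcKO H3K27me3 correlated with wild type H3K27ac at 0.859 and with wild type H3K27me3 at 0.526. Over the other windows each also correlated with the wild type library of its own label, at 0.687 for H3K27ac and 0.742 for H3K27me3, against 0.935 and 0.862 for the other mark. These correlations are across promoters, which share local depth and mappability and are not replicates. They are therefore called the libraries labelled EedcKO H3K27ac and EedcKO H3K27me3 throughout, no direction is drawn from them alone, and counts of changed members and of changed list genes are also given with the other library in its place. Among forebrain markers, 4 of 12 had a wild type H3K27ac summit, the position the authors gave for the top of a peak, within 1000 bp of the start, against 0 of 8 for hindbrain and spinal cord, 0 of 8 for microglia, 0 of 8 for endothelium, 0 of 9 for erythroid cells and 1 of 8 for mesenchyme. A wild type H3K27me3 summit was near 5 of the 12 forebrain markers, 3 of the endothelial and 2 of the mesenchymal ones, and 0 in the other lists. The forebrain markers had wild type medians of 224 H3K27me3, 58 H3K27ac and 17 IgG counts. The part of other cell types in the results was not tested.

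The stretch between both starts is short enough to print, and 7 pairs are shown as examples of the kinds of pair described. Psma7/Ss18l1 (a proteasome subunit and a chromatin-remodelling subunit), Wrap53/Trp53 (a telomerase factor and the p53 tumour suppressor), Mrps12/Sars2 (a mitochondrial ribosomal protein and a mitochondrial seryl-tRNA synthetase) and Uqcrh/Lrrc41 (a respiratory chain subunit and a leucine-rich repeat protein) carried H3K27ac. H2ac8/H2bc8 is a pair of replication-dependent histone genes, and Lhx1/Lhx1os and Gm28793/Hoxd9 (homeobox genes with a transcript opposite) lay in H3K27me3. Sequences are plus-strand, 5′ to 3′, from RefSeq promoters of GRCm38.p6, from the minus-strand gene's start to the plus-strand gene's start. Capitals mark matches, on either strand, to the TATA box TATAAA, the CCAAT box CCAAT, the GC box GGGCGG or the ETS core CCGGAAG, which occur in 13.6%, 37.4%, 35.7% and 8.86% of all 32851 RefSeq promoters of 300 bases.
Psma7/Ss18l1 (chr2:180042433-180042509): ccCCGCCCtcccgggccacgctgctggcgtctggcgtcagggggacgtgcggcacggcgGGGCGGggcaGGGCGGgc
Wrap53/Trp53 (chr11:69580255-69580359): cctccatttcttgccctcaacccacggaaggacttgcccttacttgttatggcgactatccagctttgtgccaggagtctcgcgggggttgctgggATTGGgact
Mrps12/Sars2 (chr7:28741820-28741992): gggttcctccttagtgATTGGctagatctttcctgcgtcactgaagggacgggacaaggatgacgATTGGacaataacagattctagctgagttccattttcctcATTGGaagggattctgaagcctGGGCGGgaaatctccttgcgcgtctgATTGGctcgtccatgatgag
Uqcrh/Lrrc41 (chr4:116075071-116075269): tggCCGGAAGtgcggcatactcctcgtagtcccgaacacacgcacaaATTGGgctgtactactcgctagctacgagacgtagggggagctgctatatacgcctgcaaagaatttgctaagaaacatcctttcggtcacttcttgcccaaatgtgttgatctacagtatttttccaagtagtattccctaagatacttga
H2ac8/H2bc8 (chr13:23571220-23571396): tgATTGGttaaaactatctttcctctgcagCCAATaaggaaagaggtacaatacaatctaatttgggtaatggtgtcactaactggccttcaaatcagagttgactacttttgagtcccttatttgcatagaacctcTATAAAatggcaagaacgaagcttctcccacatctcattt
Lhx1/Lhx1os (chr11:84525535-84525660): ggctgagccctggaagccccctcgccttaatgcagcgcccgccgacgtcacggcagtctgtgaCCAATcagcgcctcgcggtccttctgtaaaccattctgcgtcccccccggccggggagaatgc
Gm28793/Hoxd9 (chr2:74697586-74697727): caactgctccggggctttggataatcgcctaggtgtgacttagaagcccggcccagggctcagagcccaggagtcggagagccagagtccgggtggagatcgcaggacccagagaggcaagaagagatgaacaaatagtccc

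Within these letters Psma7/Ss18l1 held 3 GC boxes in 77 bases, Mrps12/Sars2 held 4 CCAAT boxes and 1 GC box in 173 bases, and H2ac8/H2bc8 held 2 CCAAT boxes and the only TATA box of the 7 stretches. The stretch of Gm28793/Hoxd9 matched none of these motifs. Per base, CpG were sparsest in H2ac8/H2bc8, with 1 in 177 bases (GC content 37.9%), and densest in Psma7/Ss18l1, with 11 in 77 bases (84.4%). A match is a description of letters, not of a bound site. A comparison of composition between members and other windows is void, since RefSeq promoters within 100 bp were found for only 67.1% of coding members and 56.5% of other coding windows.

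Both starts of a pair were close together. The quartiles of the distance were 75, 143 and 290 bp, and 1407 of 1852 pairs (76%) were under 300 bp apart. Since the windows span 2 kb, those of a pair overlapped by 1857 bp at the median distance and by no less than 1001 bp, so both windows count largely the same reads and are not independent. Of the 1852 pairs, 711 (38.4%) joined 2 coding genes, 432 (23.3%) a coding gene and a long non-coding RNA, 350 (18.9%) a coding gene and a symbol with no RefSeq type, 73 (3.94%) a coding gene and another gene type, and 286 (15.4%) held no coding gene. Members made up 2293 of 21419 coding windows (10.7%) and 566 of 4973 long non-coding windows (11.4%). On the X chromosome, which holds 4.74% of all windows, lay 2.54% of the pairs.

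Member windows carried more Eed, H3K27ac and RNA-Pol2 than windows without a partner. The median wild type Eed level was 15.7 RPKM in members (reads per kb of window per 1000000 promoter reads; 95% interval of the median 14.7 to 16.7) and 2.53 in other windows. The interval of the member median treats both windows of a pair as independent and is thus too narrow. Members were spread widely, with quartiles of 3.55 and 31.7 RPKM. Wild type H3K27ac had a median of 17.0 RPKM in members (16.7 to 17.5) and 6.17 in the others. RNA-Pol2 medians were 13.5 against 7.45 RPKM in wild type and 18.3 against 4.55 in EedcKO. Wild type H3K27me3 medians lay nearer to each other, at 6.33 and 3.95 RPKM, and those of EedcKO Eed were 14.2 and 8.29. In the library labelled EedcKO H3K27me3 the medians were 13.6 and 7.40 RPKM, and in the library labelled EedcKO H3K27ac 4.96 and 2.89. The controls differed less: input medians were 12.3 against 8.83 RPKM in wild type and 11.1 against 8.96 in EedcKO, and IgG medians 8.50 against 8.85 and 10.9 against 8.63. Input was thus also higher in members, and its part in the unnormalised levels was not tested; the ratios over control below divide by it for Eed.

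**Figure D1:**
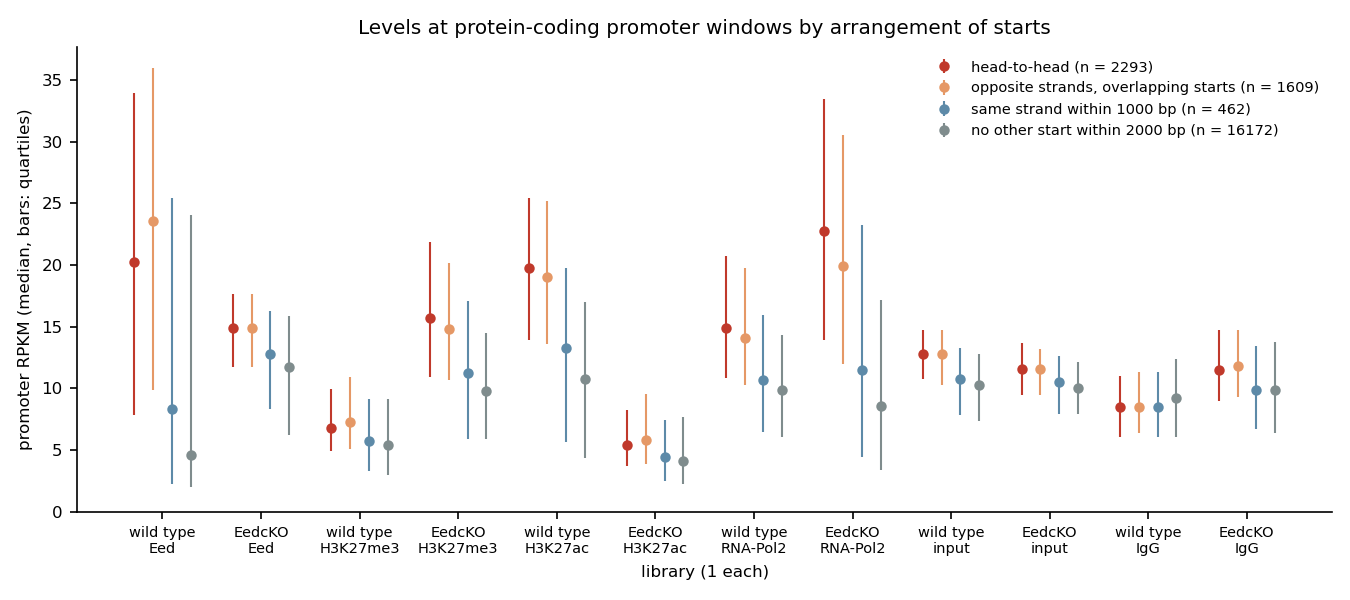
Median promoter level (RPKM, vertical axis) in each of the 12 libraries for coding windows by arrangement of their starts: head-to-head, opposite strands with overlapping starts, same strand within 1000 bp, and no other start within 2000 bp; points are medians over windows of 1 library and lines run between the quartiles. Head-to-head windows lie above isolated ones in wild type Eed (20.3 against 4.56 RPKM) and close to windows with overlapping starts (23.6 RPKM).

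Relative to the control of the same genotype and assay, 1837 of 3801 members (48.3%) had at least 2 times the IgG level of H3K27ac in wild type, against 14.8% of all 55385 windows. For wild type RNA-Pol2 it was 1303 members (34.3%) against 10.8% of all windows, and for EedcKO RNA-Pol2 1463 members (38.5%) against 11.1%. Wild type Eed reached 2 times its input in 1267 members (33.3%) against 13.7% of all windows. Smaller gaps were seen for wild type H3K27me3, with 393 members (10.3%) against 7.15% of all windows, and for EedcKO Eed, with 241 members (6.34%) against 4.66%. In the library labelled EedcKO H3K27me3 569 members (15.0%) passed against 5.91% of all windows. In the library labelled EedcKO H3K27ac 254 (6.68%) passed against 5.84%, which is near the background. Among coding windows only, the order turned for wild type H3K27me3, with 231 of 2293 members (10.1%) against 2484 of 19126 others (13.0%). It also turned for the library labelled EedcKO H3K27ac, with 6.06% against 10.6%. The difference of median log2 ratios over control between members and other windows was 1.61 for wild type Eed, 1.35 for wild type H3K27ac, 0.82 for wild type RNA-Pol2, 1.33 for EedcKO RNA-Pol2 and 0.71 for wild type H3K27me3.

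The gaps of medians over control became smaller once only coding genes were compared, and were small against the coding windows most like the members. Only in the library labelled EedcKO H3K27me3 did the gap not shrink, at 0.41 over all windows and 0.45 over coding ones. Coding windows whose starts lie on opposite strands but overlap, so that both transcripts cross, numbered 1609 and are excluded by the rule. Wild type H3K27ac medians were 19.8 RPKM in 2293 head-to-head coding windows, 19.0 with overlapping starts, 13.2 with another start on the same strand within 1000 bp and 10.8 in 16172 coding windows with no other start within 2000 bp. Wild type Eed gave 20.3, 23.6, 8.36 and 4.56 RPKM in the same order, and EedcKO RNA-Pol2 22.8, 19.9, 11.5 and 8.59. For H3K27me3 in wild type the medians were 6.80, 7.27, 5.69 and 5.38 RPKM. Against coding windows with overlapping starts, the difference of median log2 ratio over control was 0.06 for wild type H3K27ac and -0.17 for wild type Eed, so the order turned for Eed. The high levels were thus shared with coding windows whose starts overlap. Among coding windows with a wild type H3K27ac summit, median log2 ratios over control were also close. They were 0.85 in members and 0.96 in others for wild type Eed, and 1.12 and 0.96 for wild type RNA-Pol2. Without such a summit they were 0.34 and -0.74 for Eed, and 0.49 and -0.06 for RNA-Pol2.

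Summit lists gave the same picture for H3K27ac, Eed and RNA-Pol2, but not for wild type H3K27me3. A wild type H3K27ac summit lay within 1000 bp of 47.4% of head-to-head coding windows (95% Wilson interval 45.4% to 49.5%), 45.4% of coding windows with overlapping starts and 15.8% of isolated ones. The interval counts both windows of a pair apart although they can share a summit, so it is too narrow. The shares for wild type Eed were 80.0%, 82.7% and 48.2%, and for EedcKO RNA-Pol2 75.4%, 69.4% and 32.3%. Wild type RNA-Pol2 summits, of which only 3716 were called against 25930 in EedcKO, were near 23.9%, 21.8% and 6.98%. For wild type H3K27me3 the shares were 11.8%, 16.1% and 12.3%, so head-to-head coding windows had no more H3K27me3 summits than isolated ones. Their median H3K27me3 level was higher, at 6.80 against 5.38 RPKM. These summits also miss windows with many counts: of 33 Hox genes outside pairs, with a median of 1384 counts, 3 had one. In the library labelled EedcKO H3K27ac the shares were 8.20%, 13.2% and 11.6%, in the same order of arrangements as wild type H3K27me3.

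**Figure D2:**
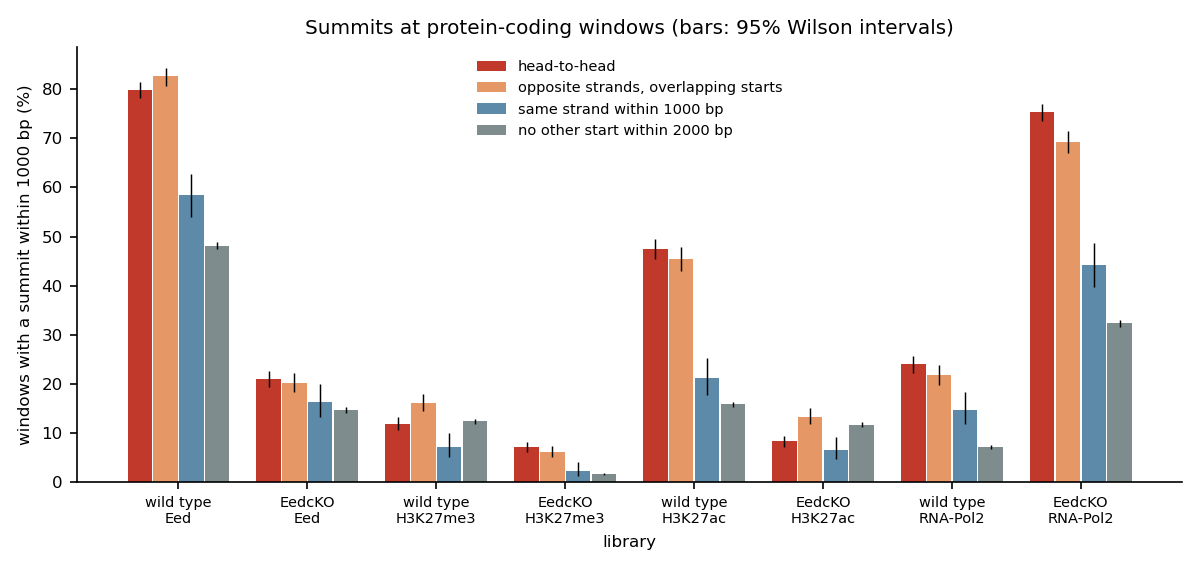
Percent of coding windows with an authors' summit within 1000 bp of the start (vertical axis, bars from 0) in each of the 8 antibody libraries, by arrangement of starts, with 95% Wilson intervals that cover counting error only. H3K27ac in wild type is at 47.4% of head-to-head windows and 15.8% of isolated ones, while H3K27me3 in wild type is at 11.8% and 12.3%. Lack of a summit is not lack of the mark. The intervals treat both windows of a pair as independent, so they are too narrow for paired windows.

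Marks varied among members with the kind of pair and the distance. Of pairs of 2 coding genes 56.4% had a wild type H3K27ac summit, against 35.0% of pairs of a coding gene and a long non-coding RNA and 5.59% of pairs without a coding gene. Pairs of a coding gene and a long non-coding RNA had the most wild type H3K27me3 summits, 17.8% against 11.3% in coding pairs and 3.50% without a coding gene. By distance, 37.4% of pairs under 100 bp had an H3K27ac summit, then 45.4%, 40.1%, 35.8% and 26.7% in pairs from 100, 200, 300 and 500 bp apart up to the next limit. Among pairs of 2 coding genes this drop was not seen, with 51.0%, 66.3%, 55.9%, 54.8% and 54.8% over the same distances, the last 2 over 62 pairs each. H3K27me3 summits were near 5.96% of pairs under 100 bp apart and 16.2% of those 500 to 1000 bp apart, where the stretch searched is also longer.

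Both windows of a pair gave nearly the same value, as far as their shared reads allow to judge. Across the 12 libraries the correlation of both log2 counts over 1852 pairs was between 0.966 and 0.991, and 682 pairs had equal wild type Eed counts. At 500 to 1000 bp, where least is shared, the wild type H3K27ac correlation was 0.962 over 266 pairs; 40 of these pairs differed more than 2-fold between sides in wild type Eed, against 9 in wild type input. In 42 pairs of a coding gene and a long non-coding RNA at least 500 bp apart, wild type Eed was higher on the coding side in 30 and lower in 9, and EedcKO RNA-Pol2 in 30 and 12. The wild type controls did not lean this way, with 19 higher and 22 lower for input and 18 and 24 for IgG, but those of EedcKO did in part, with 23 higher and 15 lower for input and 22 and 17 for IgG.

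Some wide pairs had unequal sides. Gm50402/Smc3, 987 bp apart, was higher on the side of Smc3, a cohesin subunit, with 131 against 81 counts of wild type RNA-Pol2, 407 against 257 in EedcKO and 211 against 58 of wild type Eed; wild type input was also unequal there, with 29 against 15 counts, and wild type IgG had 13 against 16. In Sox10/Gm10863, 801 bp apart, H3K27me3 was unequal: the side of Sox10, a neural crest and glial transcription factor, had 493 wild type counts and the other side 270. The library labelled EedcKO H3K27ac gave 687 and 311 there, and wild type IgG 54 and 58. Both were named for their unequal wild type RNA-Pol2 or H3K27me3, so only the other libraries add to it.

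Where the starts were far enough apart to resolve it, summits were often between them. In pairs 300 to 1000 bp apart the stretch between starts made up 23.0% of the length searched, and held 54 of 142 wild type H3K27ac summits (38.0%), 52 of 90 RNA-Pol2 summits (57.8%) and 36 of 82 H3K27me3 summits (43.9%). The 95% Wilson intervals for H3K27ac and RNA-Pol2 were 30.5% to 46.2% and 47.5% to 67.5%. Wild type Eed had 90 of 350 there (25.7%), close to the share of length. In EedcKO, RNA-Pol2 had 112 of 247 summits between the starts (45.3%). The share of length assumes an even spread of summits. At isolated coding starts wild type summits lay a median of 157 bp from the start for H3K27ac and 100 bp for RNA-Pol2. The excess over length thus cannot be credited to the pairing. In pairs under 300 bp, where the stretch was 5.60% of the length, it held 65 of 595 H3K27ac summits (10.9%) and 99 of 1130 Eed summits (8.76%). Wild type H3K27me3 had 7 of 137 there (5.11%). Summits outside lay a median of 188 bp beyond the nearer start for H3K27ac and 217 bp for Eed in these narrow pairs. At isolated coding starts summits downstream of the start lay a median of 242 bp from it for H3K27ac and 248 bp for Eed, and 746 of 2623 H3K27ac summits (28.4%) and 19.3% of Eed summits lay upstream.

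**Figure D3:**
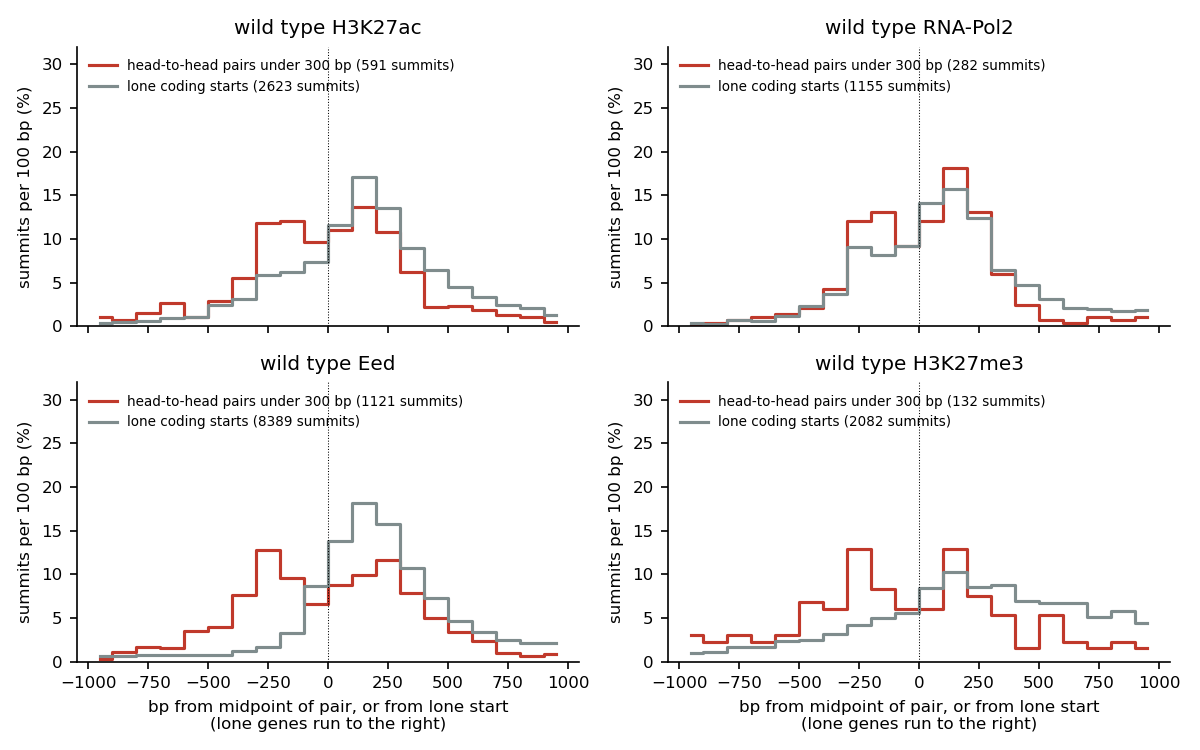
Share of wild type summits per 100 bp (vertical axis, percent of the summits drawn) around pairs under 300 bp apart, by bp from the midpoint of the pair, and around isolated coding starts, by bp from the start with transcription to the right. For H3K27ac the bin from -300 to -200 bp holds 11.8% of pair summits and 5.87% of isolated ones, and the bin from 100 to 200 bp 13.7% and 17.1%, so pair summits lie on both sides.

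Of 21 divergent gene pairs listed as textbook examples, the rule found 10, with starts 72 to 691 bp apart. In 10 others the annotated starts overlapped by 21 to 341 bp, among them Hspd1/Hspe1 (mitochondrial chaperonins) and Surf1/Surf2, and the starts of Col4a6/Col4a5 were 1309 bp apart. A wild type H3K27ac summit was near 8 of the 10 found and 9 of the 10 with overlapping starts, and an H3K27me3 summit near 1 and 2. The rule thus splits like pairs by annotated start positions alone.

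Psma7/Ss18l1, whose starts are 76 bp apart on chromosome 2, had the most wild type Eed of the known pairs found. The Psma7 window had 346 Eed counts in wild type and 35 in EedcKO, with input at 41 and 20. Its H3K27ac counts were 110 in wild type and 43 in the library labelled so in EedcKO, H3K27me3 45 and 131, RNA-Pol2 150 and 486, and IgG 11 and 28. In RPKM of the higher window, RNA-Pol2 was 30.2 in wild type and 63.2 in EedcKO, while IgG was also higher in EedcKO, at 3.89 and 8.95. Relative to the median of all tested windows, the EedcKO to wild type log2 ratio was -3.69 for Eed (95% exact interval -4.29 to -3.24) and 1.46 for RNA-Pol2 (1.21 to 1.75). These intervals, here and below, cover counting error only.

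Wrap53/Trp53, 104 bp apart on chromosome 11, showed H3K27ac and RNA-Pol2 without Eed. The Wrap53 window held 11 Eed counts in wild type and 45 in EedcKO against 33 and 29 of input, so wild type Eed was below its input. H3K27ac counts were 90 in wild type and 42 in the library labelled EedcKO H3K27ac, H3K27me3 40 and 71, RNA-Pol2 91 and 239, and IgG 18 and 35. The relative log2 ratio was 1.41 for Eed (0.62 to 2.70) and 1.16 for RNA-Pol2 (0.82 to 1.54). Brca1/Nbr1, a repair gene beside an autophagy receptor gene, was alike, with 13 Eed counts in wild type and 30 in EedcKO at Nbr1, 107 H3K27ac counts in wild type and RNA-Pol2 counts of 114 and 270. Over IgG, as a mean of both windows, RNA-Pol2 was not higher in EedcKO. It was 2.73-fold in wild type and 2.66-fold in EedcKO at Wrap53/Trp53, and 4.95-fold and 4.46-fold at Brca1/Nbr1. Neither pair had a wild type RNA-Pol2 summit, and an EedcKO RNA-Pol2 summit was near Brca1/Nbr1 only.

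The repair kinase gene Atm lay between these. At Npat, a histone gene activator opposite Atm, Eed had 65 counts in wild type and 46 in EedcKO, H3K27ac 103 and 57, H3K27me3 37 and 81, RNA-Pol2 117 and 368, input 32 and 30, and IgG 29 and 37, in libraries as labelled. The Eed log2 ratio was -0.93 relative to the median window but -0.05 scaled by library totals. RNA-Pol2 was higher in EedcKO by either scaling, 1.42 relative to the median and 1.01 by totals. Mcm4/Prkdc (a replicative helicase subunit and the DNA-dependent protein kinase), Gart/Son and Pdcd10/Serpini1 had relative RNA-Pol2 ratios of 0.99, 1.05 and 1.44. At Mrps12/Sars2, wild type H3K27ac was 65 counts at Sars2 and IgG 23, Eed 33 in wild type and 62 in EedcKO, and RNA-Pol2 80 and 165.

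Col4a4/Col4a3, encoding basement membrane collagen chains, differed from the other known pairs found. The Col4a3 window had 91 H3K27me3 counts in wild type and 38 in the library labelled so in EedcKO, 38 and 118 of H3K27ac, 57 and 62 of RNA-Pol2, 42 and 48 of Eed, and 30 and 87 of IgG. Its wild type H3K27ac level was at the level of IgG, and its relative RNA-Pol2 ratio was -0.07 (-0.64 to 0.45).

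**Figure D4:**
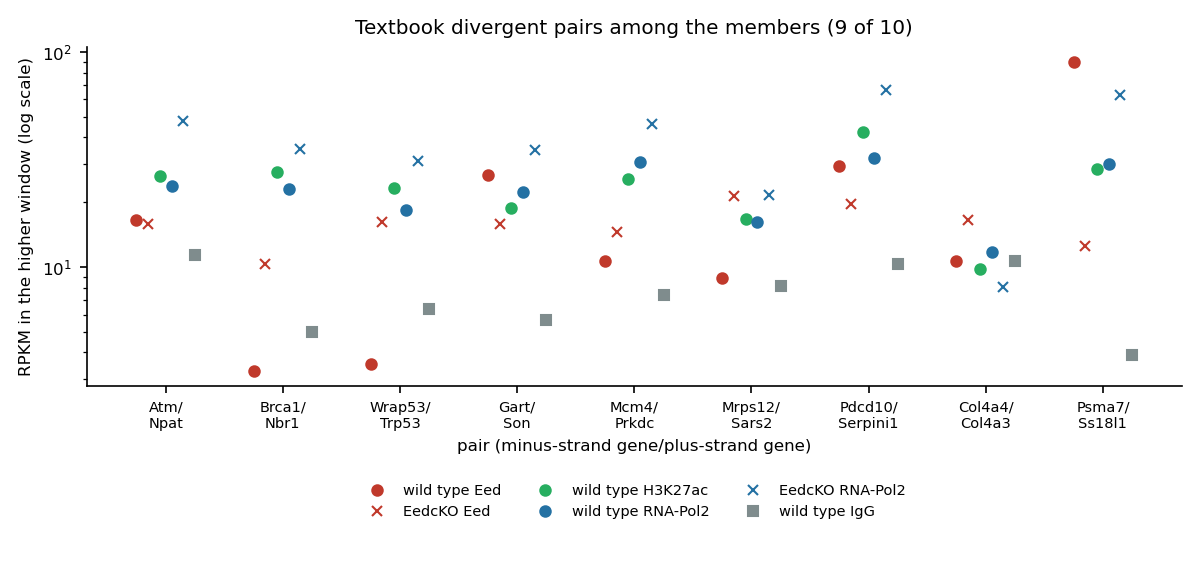
Levels in the higher window (RPKM, vertical axis, log scale) of 9 of the 10 textbook pairs that the rule found, 1 point per library, for Eed and RNA-Pol2 in both genotypes and H3K27ac and IgG in wild type. EedcKO RNA-Pol2 lies above wild type RNA-Pol2 at 8 of the 9 pairs drawn and below it at Col4a4/Col4a3 (8.07 against 11.7 RPKM), and wild type Eed is highest at Psma7/Ss18l1 (89.2) and lowest at Brca1/Nbr1 (3.29) and Wrap53/Trp53 (3.55).

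Among fixed gene lists, 24 of 64 DNA repair genes (37.5%), 20 of 83 mitochondrial ribosomal protein genes (24.1%), 23 of 99 respiratory chain genes (23.2%) and 8 of 37 tRNA synthetase genes (21.6%) were in a pair, against 10.7% of all coding windows. H3K27ac summits in wild type were near 15 of the 24 repair members, 15 of the 20 mitochondrial ribosomal ones, 13 of the 23 respiratory ones and all 8 tRNA synthetase members, against 47.4% of all coding members. Genes of the same lists outside pairs had such a summit in 19 of 40, 24 of 63, 26 of 76 and 14 of 29 cases, in the same order. The synthetase genes in pairs included Iars2, Eprs, Yars and Kars, which charge tRNAs with their amino acids; wild type H3K27ac was 71, 119, 126 and 82 counts there, with IgG at 37, 14, 29 and 24. These counts are not scaled for depth. Scaled to RPKM, wild type H3K27ac was 1.34 times IgG at the pair of Iars2 and 5.65 times at that of Eprs, as means of both windows. At Lrrc41, opposite the respiratory gene Uqcrh, wild type H3K27ac was 239 counts against 24 of IgG, Eed 205 in wild type and 52 in EedcKO, and RNA-Pol2 197 and 586.

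Clustered histone genes were the list most often in a pair, 42 of 73 (57.5%). Their products package new DNA during replication, and near-identical copies may share reads, so single counts are uncertain. None of the 42 had a wild type H3K27ac or H3K27me3 summit, while 30 had a wild type Eed summit and 13 an EedcKO RNA-Pol2 summit; over all members the shares were 37.4%, 10.4%, 68.6% and 61.8%. Of the 31 histone genes outside pairs, 1 had an H3K27ac summit, 0 an H3K27me3 summit, 20 an Eed summit and 7 an EedcKO RNA-Pol2 summit. Median counts were 29 of wild type Eed, 33.5 of H3K27ac and 33.5 of RNA-Pol2, with wild type IgG at 7.5 and input at 19.5, so IgG was below its member median of 24. These counts are not scaled for depth, and the wild type Eed library held 1972842 promoter counts against 1018763 of input. At H2ac8, opposite H2bc8, the counts were 38 Eed, 22 input, 31 H3K27ac, 45 RNA-Pol2 and 7 IgG in wild type. Scaled to RPKM, wild type Eed was 0.87 times its input as a mean of both windows, so Eed was not above input at this pair. EedcKO RNA-Pol2 was 53 counts at H2ac8, a relative log2 ratio of 0.04 (-0.58 to 0.62).

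Developmental genes in pairs carried high H3K27me3. Members included 15 of 131 developmental transcription factors (11.5%) and 6 of 39 Hox genes (15.4%), with median wild type H3K27me3 of 1160 and 1364.5 counts against 40 in all members; the same lists outside pairs had medians of 1105 and 1384. The Lhx1 window, a LIM homeobox gene opposite Lhx1os, had 1318 H3K27me3 counts in wild type and 20 in the library labelled EedcKO H3K27me3, but 1756 in the library labelled EedcKO H3K27ac, whose wild type counterpart had 18. Eed was 157 in wild type and 67 in EedcKO, with input at 29 and 23, IgG at 14 and 29, and RNA-Pol2 at 21 and 62. At Hoxd9, a trunk patterning gene opposite Gm28793, H3K27me3 was 1652 and 20 counts and H3K27ac 16 and 2383 in the libraries as labelled, and Eed 253 and 69. Foxd2/Foxd2os and Wt1os/Wt1 had the same order, with 1795 and 37 H3K27me3 counts at Foxd2 and 1792 and 33 at Wt1, 22 and 2347 H3K27ac counts at Foxd2 and 33 and 2540 at Wt1. With the library labelled EedcKO H3K27ac in place of H3K27me3, counts at these 4 genes were not lower than in wild type.

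The 6 Hox members all had at least 2-fold lower Eed and labelled H3K27me3 in EedcKO, and none had 2-fold higher RNA-Pol2. Of the 15 developmental members 11 were lower for Eed, 13 lower for labelled H3K27me3, 14 higher for labelled H3K27ac and 3 higher for RNA-Pol2; over all tested windows the shares were 30%, 13%, 18.2% and 12.2%. Of the 116 developmental factors outside pairs 74 were lower for Eed, 111 lower for labelled H3K27me3, 111 higher for labelled H3K27ac and 10 higher for RNA-Pol2, and of the 33 Hox genes outside pairs 17 were lower for Eed and 33 for labelled H3K27me3. Genes of these lists outside pairs thus also differed between genotypes for Eed, and for the histone marks in libraries as labelled. With the library labelled EedcKO H3K27ac in place of H3K27me3, 0 of the 6 Hox and 0 of the 15 developmental members were 2-fold lower or higher. With the library labelled EedcKO H3K27me3 in place of H3K27ac, 3 Hox members and 0 developmental ones were higher and none were lower. Outside pairs, the exchange left 0 developmental factors lower and 2 higher of 116 for H3K27me3, and 3 lower and 6 higher for H3K27ac. Of the 33 Hox genes outside pairs, 0 were then lower or higher for H3K27me3, and 0 lower and 9 higher for H3K27ac. At Pcgf5, a Polycomb repressive complex 1 subunit whose start lies 11 bp from Gm47735, Eed was 332 in wild type and 60 in EedcKO and H3K27me3 294 and 36 in libraries as labelled, but 355 in the library labelled EedcKO H3K27ac, whose wild type counterpart had 54. Gm43050/Tbx5 had H3K27me3 without Eed over input: 1160 wild type H3K27me3 counts at Tbx5, a limb and heart factor, beside 28 of Eed and 24 of input.

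Between genotypes, ratios were taken relative to the median of all tested windows. Scaled by library totals, that median log2 ratio was 0.88 (Eed), 0.85 (H3K27me3), -1.04 (H3K27ac) and -0.41 (RNA-Pol2). The source of these shifts was not tested. Eed was at least 2-fold lower in EedcKO in 1990 of 3687 tested members (54.0%), against 30% of all tested windows, and at least 2-fold higher in 452 (12.3%) against 22.6%. RNA-Pol2 was higher in 1429 of 3682 members (38.8%) against 12.2% of all, and lower in 68 (1.85%) against 7.86%. The median relative log2 ratio was -1.19 in members and 0.07 in other windows for Eed, and 0.85 and -0.05 for RNA-Pol2. Scaled by library totals alone, 1055 members (28.6%) were 2-fold lower and 949 (25.7%) higher for Eed, against 13.6% and 48.9% of other windows. For RNA-Pol2 it was 237 lower (6.44%) and 279 higher (7.58%), against 22.3% and 2.01%. Over their own controls, member medians lay close in both genotypes. The log2 medians were 0.33 in wild type and 0.27 in EedcKO for Eed, and 0.61 and 0.72 for RNA-Pol2. In other windows they were -1.28 and -0.02 for Eed, and -0.20 and -0.61 for RNA-Pol2. The member shift toward less Eed and more RNA-Pol2 is thus relative to other windows. Compared with coding windows whose starts overlap, the difference of median genotype ratios was 0.19 for Eed, with the sign turned, and 0.08 for RNA-Pol2. In coding windows with a wild type H3K27ac summit, members and others were also close. Their median relative log2 ratios were -1.57 and -1.69 for Eed, and 1.09 and 0.997 for RNA-Pol2. Without such a summit they lay further apart, at -1.18 and -0.49 for Eed, and 0.79 and 0.19 for RNA-Pol2. The shift was thus largely shared by coding windows with an H3K27ac summit outside pairs.

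For the libraries labelled H3K27me3, 408 of 3675 members (11.1%) were 2-fold lower against 13% of all tested windows and 528 (14.4%) higher against 6.8%. For those labelled H3K27ac, 1055 of 3649 (28.9%) were lower against 11.7% and 428 (11.7%) higher against 18.2%. By library totals these became 249 lower and 1988 higher for H3K27me3 (6.78% and 54.1%, against 6.42% and 40.0% of other windows), and 2642 lower and 259 higher for H3K27ac (72.4% and 7.098%, against 49.9% and 7.96%). When the library labelled EedcKO H3K27ac stood in for H3K27me3, 77 members were lower and 62 higher, with a median of 0.04, or 2.11% and 1.70% against 4.69% and 2.62% of other windows. When the library labelled EedcKO H3K27me3 stood in for H3K27ac, 368 were lower and 141 higher, with a median of -0.31, or 10.01% and 3.84% against 5.87% and 13.9% of other windows.

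Pairs were also sorted by their wild type histone summits, which fixes the direction of the histone ratios in part, so these are descriptions. H3K27ac alone was near 630 pairs (34%), H3K27me3 alone near 128 (6.91%), both near 78 (4.21%) and neither near 1016 (54.9%). The last class holds Lhx1/Lhx1os and Foxd2/Foxd2os, among the pairs with the most H3K27me3 counts, so lack of a summit in the stretch searched is not lack of the mark. An EedcKO RNA-Pol2 summit was near 95.4% of pairs with H3K27ac alone, 50.8% with H3K27me3 alone, 96.2% with both and 41.3% with neither. Wild type Eed summits were near 90.8%, 83.6%, 85.9% and 54.7%, so Eed summits were not fewer at pairs with acetylation alone than at pairs with trimethylation alone. RNA-Pol2 was 2-fold higher in EedcKO in 371 and lower in 0 of 630 pairs with H3K27ac alone, and higher in 23 and lower in 1 of 128 with H3K27me3 alone. Median Eed ratios were -1.56 and -1.67 in these classes, and those of RNA-Pol2 1.07 and 0.53.

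**Figure D5:**
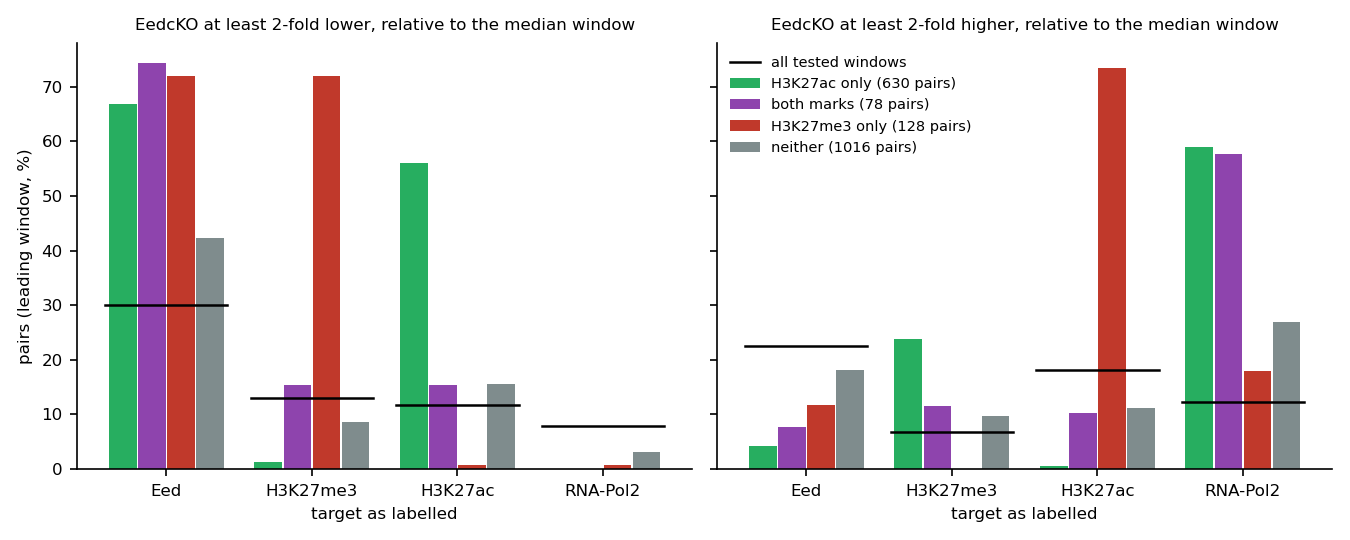
Percent of pairs (vertical axis, leading window) whose EedcKO to wild type ratio was at least 2-fold lower (left) or higher (right) relative to the median window, by target as labelled and class of wild type histone summit; black lines are the shares of all tested windows. Eed is lower in 421 of 630 pairs with H3K27ac alone and 92 of 128 with H3K27me3 alone, both above the 30% line, and RNA-Pol2 is higher in 371 and 23.

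Single pairs showed how far Eed and the histone marks could part. Usf2, a transcription factor gene opposite Gm4673, had the highest wild type Eed over input among pairs that passed the count minimum, 334 counts against 14, with H3K27me3 at 46 and H3K27ac at 66; EedcKO Eed was 57. Safb, encoding a scaffold attachment factor opposite its paralogue Safb2, had 241 Eed counts in wild type and 51 in EedcKO, 112 of H3K27ac in wild type, and RNA-Pol2 of 197 and 499. In contrast, Sh3bp5l, a guanine nucleotide exchange factor gene opposite Zfp672, had 6 Eed counts in wild type and 66 in EedcKO against 27 and 18 of input, with 105 H3K27ac counts in wild type. At Mzt1, a microtubule nucleation factor opposite Bora, RNA-Pol2 was 41 in wild type and 184 in EedcKO with IgG at 21 and 36, a relative log2 ratio of 1.89 (1.45 to 2.47). Rbbp4, a histone-binding PRC2 subunit opposite Zbtb8os, had 126 Eed counts in wild type and 51 in EedcKO, 111 of wild type H3K27ac and 191 and 463 of RNA-Pol2.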

How the data were processed

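For each of 55385 windows the deposited promoter tables give whole-number counts, although the authors named the files for RPKM; since the totals differ between libraries, the values were treated as counts. All but 2 windows span 2 kb. Each deposited summit list holds the peaks of 1 library and a score, −log10 of either p-value or q-value, that served only as a filter. Per the submitters' processing notes Bowtie2 2.4.1, ChIPseeker 1.22.1, deepTools 3.4.0 and MACS2 2.2.7.1 were used on mm10; read filters are not given in these sources. Spreadsheet dates had replaced 27 symbols in the labelled EedcKO H3K27ac table, and these were restored through their Ensembl identifiers. Of 55276 symbols 39149 matched the RefSeq gene table of GRCm38.p6, used for gene type.

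Counts were converted to RPKM with each library's promoter total. Ratios used log2 with a pseudocount of 0.5 RPKM, which understates the change of low windows; genotype ratios used windows with a mean of at least 1 RPKM, were taken relative to the median of all tested windows, and 2-fold was the size rule. Intervals are 95% (order statistics for medians, Wilson for shares, exact Clopper-Pearson for ratios) and cover counting error only. Those over windows treat both windows of a pair as independent, so they are too narrow. Scripts were checked on simulated data. Named pairs were, among pairs with at least 50 counts in both windows of the higher library and 2 times control, the 5 highest over control in each wild type library and the 5 highest and 5 lowest genotype ratios per target; among pairs at least 500 bp apart with 100 counts in both windows together, the 5 most unequal in wild type RNA-Pol2, H3K27ac and H3K27me3; all textbook pairs; and up to 4 of each other list with the highest mean wild type counts. Pairs on chromosome 18 were not named, and the size rules required a coding gene other than a Gm or Rik model. Some named pairs are not reported here. Members, lists and rules were chosen with earlier results of these data known. Alternatives were the distance limit, coding windows only, isolated windows, pseudocount, a count minimum, exchanged histone labels, summit score and reach, and several added after seeing the data. Work used Python 3.11.15, numpy 2.4.6, pandas 2.3.3, scipy 1.17.1 and matplotlib 3.10.9.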

Additional observations from a re-analysis of the deposited data

How the results depend on the processing

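Of 88 alternative values of 23 results, 18 stayed within the counting interval, 65 moved and 5 turned sign; 69 of 74 alternative differences of medians kept their sign, and all 400 genotype ratios of the named pairs stayed within their intervals with a pseudocount of 1. The differences below are medians of members minus others on the log2 scale, and where the construction of the alternative does not show it the cause was not tested. With pairs up to 300 bp apart they were 1.71 (wild type Eed over control), 1.43 (wild type H3K27ac), 0.87 (wild type RNA-Pol2), 0.45 and 0.14 (labelled EedcKO H3K27me3 and H3K27ac), 1.39 (EedcKO RNA-Pol2), and for the genotype ratios -1.33 (Eed), 0.29 (H3K27me3), -0.71 (H3K27ac) and 0.94 (RNA-Pol2). With only coding windows they were 0.91, 0.335 and 1.01 over control for wild type Eed, H3K27me3 and H3K27ac, 0.14, 0.45, 0.0125 and 0.93 for EedcKO Eed, H3K27me3, H3K27ac and RNA-Pol2 as labelled, and -0.55, 0.36 and 0.58 for the genotype ratios of Eed, H3K27me3 and RNA-Pol2. Against isolated windows they were 0.78, 1.45 and 0.87 for wild type H3K27me3, H3K27ac and RNA-Pol2, 0.34, 0.24 and 1.42 for EedcKO Eed, labelled H3K27ac and RNA-Pol2, and -1.34 and 0.97 for the ratios of Eed and RNA-Pol2. A pseudocount of 1 RPKM gave 1.46, 0.63, 1.29 and 0.775 for wild type Eed, H3K27me3, H3K27ac and RNA-Pol2, 1.25 for EedcKO RNA-Pol2 and -1.15 and 0.85 for the ratios of Eed and RNA-Pol2. A minimum of 20 counts gave 1.80, 0.755, 1.42 and 0.91 for the same wild type libraries, 0.485, 0.255 and 1.44 for labelled EedcKO H3K27me3, H3K27ac and RNA-Pol2, and -1.47 for the Eed ratio.

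Against coding windows with overlapping starts, added after seeing the data, the sign turned for wild type Eed (-0.17), wild type H3K27me3 (-0.0184), EedcKO Eed (-0.0084), labelled EedcKO H3K27ac (-0.0755) and the Eed ratio (0.19); the others were 0.0617 and 0.13 for wild type H3K27ac and RNA-Pol2, 0.0913 and 0.11 for labelled EedcKO H3K27me3 and RNA-Pol2, and 0.11, -0.0487 and 0.0773 for the ratios of H3K27me3, H3K27ac and RNA-Pol2. With the histone labels of EedcKO exchanged, the H3K27me3 ratio was 0.0414 and the H3K27ac ratio -0.34. Without the median shift, also added after seeing the data, members 2-fold lower and higher numbered 1055 and 949 for Eed, 249 and 1988 for H3K27me3, 2642 and 259 for H3K27ac, and 237 and 279 for RNA-Pol2. Pairs with a wild type H3K27ac summit were 38.2%, 7.56% with summit scores of at least 10, 34.4% within 500 bp and 40.7% of pairs up to 300 bp apart. The share of these summits between both starts was 16.1%, and 38.0% in pairs 300 to 1000 bp apart. Agreement of both windows in wild type H3K27ac was 0.988, and 0.962 in pairs 500 to 1000 bp apart (added after seeing the data). No paired analysis was possible because every library is replicate 1 and groups share fewer than 2 numbers. With 1 library per group no alternative leaves out a replicate, and low counts (a member median of 24 in wild type IgG) limit every ratio over control.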

Other observations

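Dmrta2 and Sox3, genes of forebrain development that are in a pair, carried H3K27me3, at Dmrta2 beside some H3K27ac and RNA-Pol2. At Dmrta2, a cortical patterning factor opposite Dmrta2os, wild type H3K27me3 was 1006 counts and the library labelled EedcKO H3K27ac had 1622, while wild type H3K27ac was 79, RNA-Pol2 153 in wild type and 327 in EedcKO, and IgG 38 and 46. Its relative RNA-Pol2 log2 ratio was 0.87 (95% exact interval 0.60 to 1.16, counting error only). At Sox3, a neural progenitor factor on the X chromosome opposite Gm14662, Eed was 192 counts in wild type and 21 in EedcKO with input at 16 and 12, wild type H3K27me3 was 154 and the library labelled EedcKO H3K27ac had 275, and RNA-Pol2 was 55 and 98. Wild type RNA-Pol2 at Sox3 was thus below the median of 67 counts in all members. None of these values has a replicate check.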
